A study of Mus musculus with 7 samples.

Results

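The genes described here encode the lipases that break down stored triglyceride and the proteins that coat lipid droplets: Pnpla2, Lipe, Mgll, Abhd5, Plin1, Plin2, Plin5, Cidec, G0s2 and Lipa. They were taken by name, 10 genes in all, and every probe set paired with them was used. Of these, 9 had a probe set on the array, out of 18193 genes that could be named there. Plin1, the perilipin of fat cells, was paired with 0 probe sets under its present or older symbol, so its level is not analysed here. The measurements came from brown fat that was taken from male C57BL/6J pups at an age of 3 days. Wild-type pups (n = 3, replicates 1, 3 and 4) were set against pups with a knockout (KO) of Gyk, the glycerol kinase gene (n = 4, replicates 1 to 4). Total RNA of each sample had been hybridised to 1 array, and the wild-type samples were the control group. The labels do not say how the knockout was made or whether each sample is a separate animal. The p-values therefore cover only the spread between arrays, which may be partly technical.

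Triglyceride in a lipid droplet is cut stepwise into fatty acids and glycerol. ATGL, encoded by Pnpla2, removes the initial fatty acid, hormone-sensitive lipase (Lipe) acts on the diglyceride, and monoglyceride lipase (Mgll) releases the last fatty acid and free glycerol. CGI-58 (Abhd5) activates ATGL and G0s2 inhibits it, while perilipins and Cidec sit on the droplet surface and govern the access of lipases and the size of droplets. Lysosomal acid lipase (Lipa) hydrolyses triglyceride and cholesteryl ester inside the lysosome, including lipid brought there by autophagy. In brown fat the fatty acids released by lipolysis activate Ucp1 and fuel heat production, and glycerol kinase can return the glycerol to triglyceride synthesis.

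The array medians ran from 131.2 to 153.7 signal units. The tissue label was matched by its markers: Ucp1 read 26887 to 37577 and Cidea 22275 to 29639 on the 7 arrays. The array labelled KO replicate 2 stood apart from the other KO arrays. On the leading principal component it scored -13.8, while the remaining KO arrays scored 33.4 to 35.7 and wild type -33.3 to -23. Xist, a transcript of female cells, read 2757 on that array with 1 probe set and 183 to 273 on the other 6, although all samples were labelled male. Results are therefore given with and without it. The leading component also sets the other KO arrays apart from wild type. Leaving out the KO array nearest to wild type can by itself widen the differences and narrow the KO spread. Calls made only without it are therefore not independent support for a difference. The targeted gene was not analysed here, so genotypes rest on the labels. Wild-type replicate 1 and KO replicates 1 and 2 lay in 1 accession range and the other 4 arrays in another, and both ranges are called deposit blocks below.

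Lipa was lower in the KO, and with all 7 arrays weighted equally and probe sets under the 40th percentile left out it was the only one of the 9 measured genes with a probe set past the threshold. The brightest Lipa probe set fell 1.49-fold. With a filter at the 60th percentile or with array weights, 1 Pnpla2 probe set passed as well. Without the array labelled KO replicate 2, Abhd5 rose 1.66-fold on 1 of its 3 probe sets and Pnpla2 rose 1.67-fold on 1 of its 2. Lipe, Mgll, Plin2, Plin5, Cidec and G0s2 passed neither with all arrays nor without KO replicate 2. Their differences lay between -0.23 and 0.15 on the log2 scale with all arrays.

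Of the 19 probe sets of these genes, 17 were bright enough to be tested. With all arrays 2 of the 17 passed (limma, Benjamini-Hochberg adjusted p under 0.05), both of Lipa and both lower, where 0.644% of 27022 probe sets were called lower. No member probe set was called higher, against 0.951% of all probe sets, and 6 of the 17 had an unadjusted p under 0.05, where 16.5% of all probe sets did (18.2% of genes by their brightest probe set). Without the array labelled KO replicate 2, 3 were lower (background 4.21%) and 2 were higher (background 3.14%). The groups did not overlap in 5 of the 17 (14.7% of all probe sets tested), and in 8 of the 17 without that array (27.1%). Probe sets of 1 gene share a target and are not separate evidence. The median log2 difference of the 9 brightest probe sets was -0.01, the same as over the brightest probe sets of all 13102 genes tested.

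**Figure D1:**
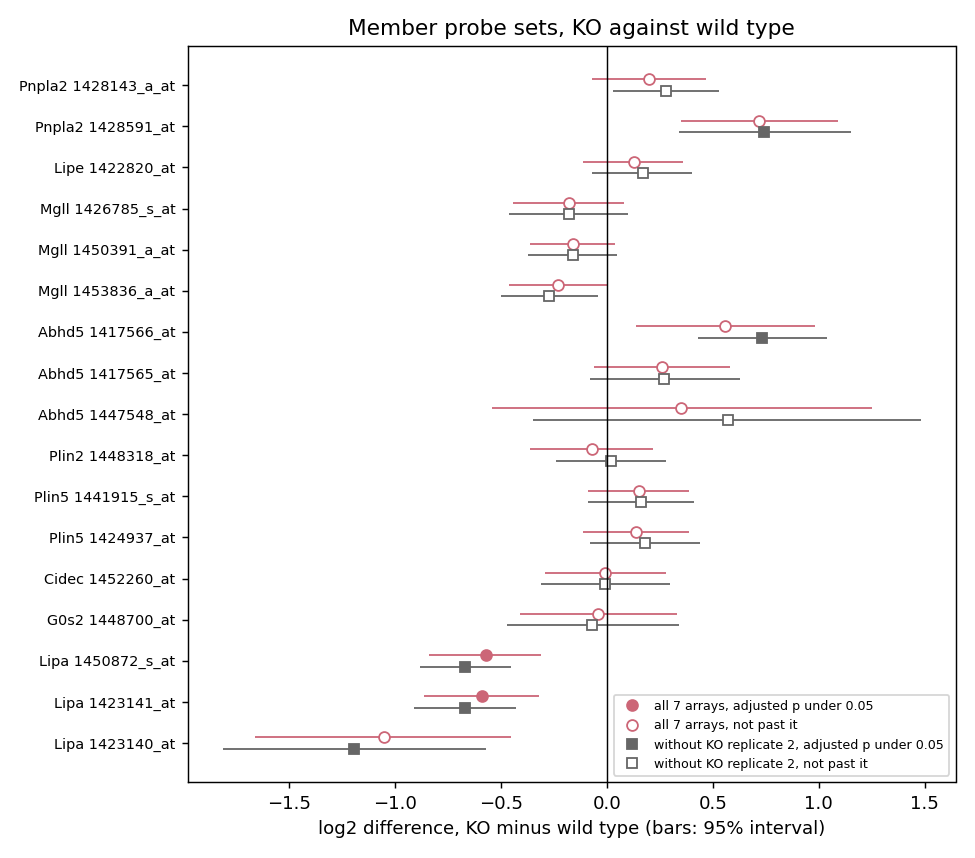
Log2 difference between KO and wild type for the 17 tested probe sets, with 95% intervals, from all 7 arrays (circles) and without KO replicate 2 (squares); filled symbols passed at an adjusted p under 0.05. The 3 Lipa probe sets lie lowest, from -1.05 to -0.57 with all arrays, and the intervals of Lipe, Plin2, Plin5, Cidec and G0s2 include 0.

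The 3 genes with a called probe set are shown by the 250 bases before their annotated start, from RefSeq (GRCm38.p6), so that a reader can see the sequence next to which these transcripts begin. Each is written 5′ to 3′ on the gene's strand. Capitals mark matches on either strand to 6 motifs: CACGTG (the E-box), AGGTCA (a nuclear receptor half-site), TGTTCT (a glucocorticoid receptor half-site), TGACG (the core of cyclic AMP response elements), CCAAT and GGGCGG (the GC box).
Lipa, chr19:34527475-34527724, minus strand: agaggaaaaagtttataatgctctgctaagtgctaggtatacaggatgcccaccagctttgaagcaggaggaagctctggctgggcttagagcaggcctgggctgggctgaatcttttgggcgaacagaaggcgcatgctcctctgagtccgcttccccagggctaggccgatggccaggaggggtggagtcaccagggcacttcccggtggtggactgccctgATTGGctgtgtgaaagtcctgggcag
Pnpla2, chr7:141454938-141455187, plus strand: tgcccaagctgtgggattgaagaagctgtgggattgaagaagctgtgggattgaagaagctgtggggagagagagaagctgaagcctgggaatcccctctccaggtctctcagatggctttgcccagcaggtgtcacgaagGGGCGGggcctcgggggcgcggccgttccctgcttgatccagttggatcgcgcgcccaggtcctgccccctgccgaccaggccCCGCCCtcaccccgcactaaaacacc
Abhd5, chr9:122351366-122351615, plus strand: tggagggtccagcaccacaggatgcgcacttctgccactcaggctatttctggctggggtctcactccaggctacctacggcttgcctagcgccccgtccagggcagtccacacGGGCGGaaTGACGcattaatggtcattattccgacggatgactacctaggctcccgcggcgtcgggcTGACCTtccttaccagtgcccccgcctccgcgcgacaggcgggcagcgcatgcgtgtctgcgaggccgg

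The Lipa window held 1 inverted CCAAT box and no other of these motifs. The Pnpla2 window held 2 GC boxes, and the Abhd5 window held 1 GC box, 1 TGACG core and 1 inverted AGGTCA. No matches overlapped one another in these windows. Among 32851 promoter windows of the same length, CACGTG stood in 6.02%, AGGTCA in 14%, TGTTCT in 16.1%, TGACG in 17.8%, CCAAT in 33.8% and GGGCGG in 32.7%. The 10 genes had 14 windows, of which 2, 3, 1, 2, 3 and 7 held these motifs in the same order. The CACGTG matches were in windows of Lipe and Mgll. G+C made up 58.0% of the Lipa window, 63.2% of the Pnpla2 window and 64.8% of the Abhd5 window, against a median of 52.4% over all windows.

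Pnpla2 was measured by 2 probe sets of very different brightness. The bright one (1428143_a_at) read 21662, 20575 and 21739 in wild-type replicates 1, 3 and 4, and 22595, 20848, 26134 and 29449 in KO replicates 1 to 4. KO replicates 1, 3 and 4 lay above every wild-type array and KO replicate 2 among them. The means were 21330 ± 651 (SD, n = 3) and 24760 ± 3820 (n = 4), a log2 difference of 0.20 that did not pass (95% interval -0.07 to 0.47, adjusted p = 0.461). These signals are high, though below the highest value of each array, which ran from 31036 to 40460. Compression of differences at such levels is possible and was not tested.

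The dimmer Pnpla2 probe set (1428591_at) read 406, 369 and 316 in wild type and 810, 584, 524 and 576 in KO replicates 1 to 4. All 4 KO arrays were above all 3 wild-type arrays. The mean was 364 ± 45.1 in wild type and 624 ± 127 in KO, a log2 difference of 0.72 ± 0.17 (SE; adjusted p = 0.0629). This probe set passed without KO replicate 2 (log2 difference 0.74, adjusted p = 0.0368), with a filter at the 60th percentile (adjusted p = 0.0482) and with array weights (0.73, adjusted p = 0.0329). It differed by 0.64 within the second deposit block (adjusted p = 0.103) and by 0.72 within the first. The first block has 1 wild-type array, and 0 of all probe sets passed there (limma, 1024 at an unadjusted p under 0.05), so its values are given without a test. With the deposit block as a covariate the difference was 0.67 (adjusted p = 0.0517).

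Abhd5, whose product activates ATGL, was higher on 3 of the 4 KO arrays. Its brightest probe set (1417566_at) read 4073, 4325 and 3265 in wild type. In KO replicates 1, 3 and 4 it read 7171, 5527 and 6699, all above wild type. KO replicate 2 read 3954, inside the wild-type range.

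With all arrays this Abhd5 probe set averaged 3888 ± 554 in wild type and 5838 ± 1430 in the 4 KO arrays (log2 difference 0.56 ± 0.19, adjusted p = 0.171). Without KO replicate 2 the KO mean was 6466 ± 846, and the gene rose by a log2 difference of 0.73 ± 0.14 (adjusted p = 0.0122). The differences within the deposit blocks were 0.69 in the second (adjusted p = 0.0714) and 0.38 in the first. The other probe sets differed by 0.26 (1417565_at, adjusted p = 0.422) and 0.35 (1447548_at, adjusted p = 0.738). On 1417565_at 1 of the 4 KO arrays read above every wild-type array, replicate 1 at 3699. The third read at most 233 on any array.

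G0s2, the inhibitor of ATGL, had 1 probe set (1448700_at). It read 11748, 11775 and 15644 in wild type and 9238, 13375, 14838 and 13765 in KO replicates 1 to 4. The groups overlapped, and the lowest array was KO replicate 1. The log2 difference was -0.04, with a 95% interval of -0.41 to 0.33 (adjusted p = 0.944), and its sign turned to 0.01 with the deposit block as a covariate.

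Lipe, hormone-sensitive lipase, read 14646, 13813 and 16089 in wild type and 15888, 15023, 15548 and 18612 in KO replicates 1 to 4 (1422820_at). Only KO replicate 4 lay above the wild-type range. The difference was 0.13 on the log2 scale (95% interval -0.11 to 0.36, adjusted p = 0.615). A further Lipe probe set, 1432180_at, read at most 81.9 on any array and was not tested.

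Mgll, monoglyceride lipase, read lower in the KO on average on each of its 3 tested probe sets but passed on none. On 1450391_a_at it read 12301, 11830 and 12077 in wild type and 10388, 10802, 10300 and 11732 in KO replicates 1 to 4, and these groups did not overlap. The log2 difference was -0.16 (95% interval -0.36 to 0.04, adjusted p = 0.428). The brightest, 1426785_s_at, had a mean of 18040 ± 2440 in wild type and 15860 ± 1530 in KO (-0.18, adjusted p = 0.494), with overlap. The third, 1453836_a_at, differed by -0.23 (adjusted p = 0.3), and by -0.27 without KO replicate 2 (adjusted p = 0.159). One more, 1431331_at, read at most 76.0 and was not tested.

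**Figure D2:**
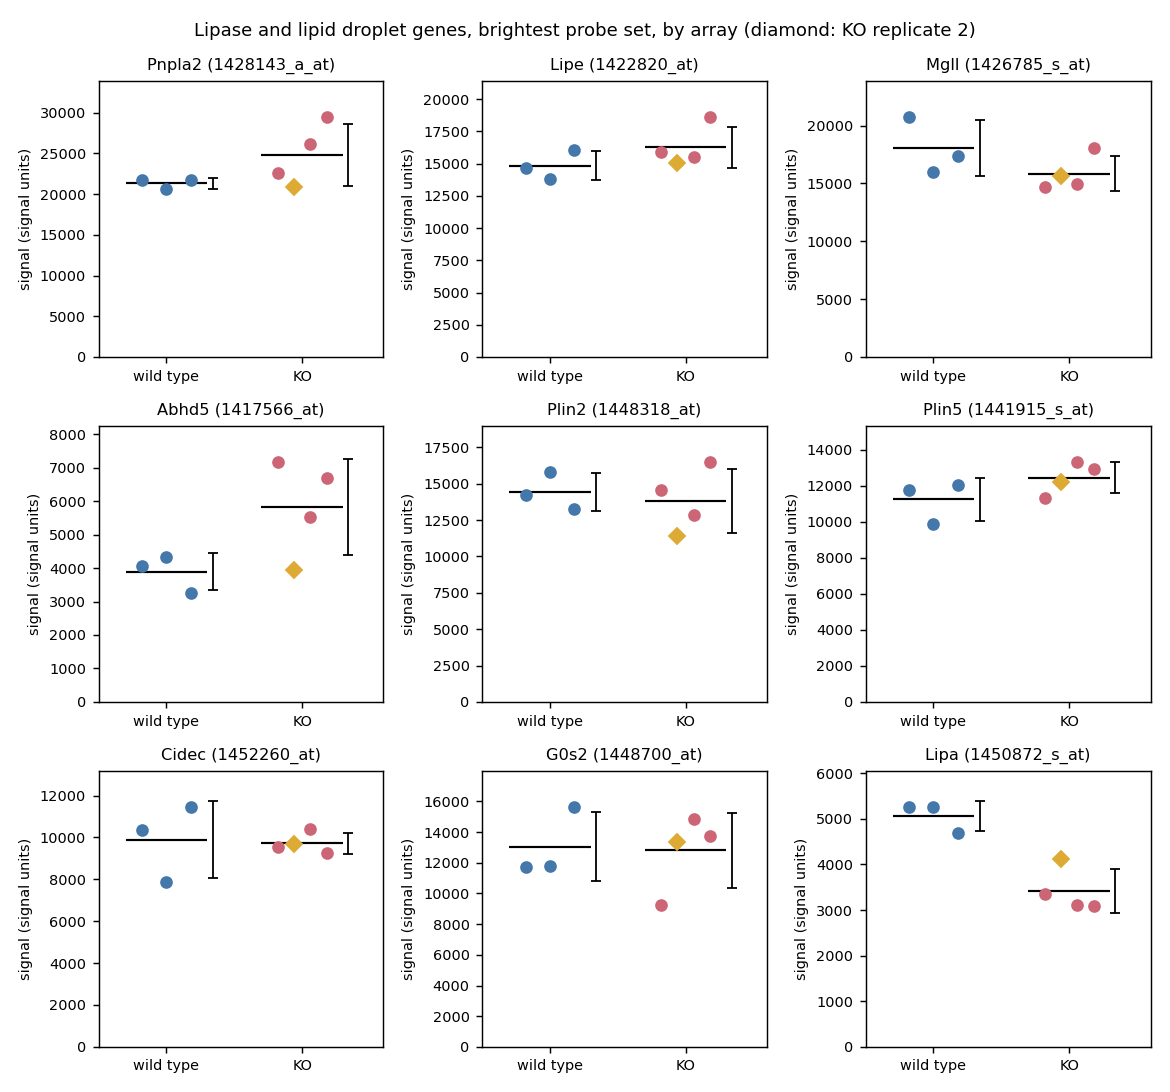
Signal on each array for the brightest probe set of the 9 measured genes in signal units; points are arrays (diamond, KO replicate 2), horizontal lines group means and vertical bars the SD. Lipa is the only panel where the 4 KO arrays (3099 to 4119) lie wholly below the 3 wild-type arrays (4693 to 5263).

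Among the droplet coat genes, Plin2, a perilipin found on droplets in most tissues, read 14241, 15787 and 13229 in wild type and 14552, 11392, 12865 and 16497 in KO replicates 1 to 4 (1448318_at). The KO arrays spanned the whole wild-type range, with KO replicate 2 the lowest. The log2 difference was -0.07 (95% interval -0.36 to 0.22, adjusted p = 0.852) and it turned to 0.02 without KO replicate 2 (adjusted p = 0.953).

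Plin5, the perilipin of oxidative tissues that ties droplets to mitochondria, read 11786, 9886 and 12064 in wild type and 11349, 12214, 13324 and 12938 in KO replicates 1 to 4 on its brightest probe set (1441915_s_at). KO replicates 2, 3 and 4 lay above every wild-type array and replicate 1 within them. The log2 difference was 0.15 (95% interval -0.09 to 0.39, adjusted p = 0.545). The other probe set, 1424937_at, gave 0.14 (adjusted p = 0.611).

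Cidec, which promotes the growth of large droplets, read 10331, 7857 and 11457 in wild type and 9561, 9695, 10421 and 9232 in KO replicates 1 to 4 (1452260_at). Every KO array fell inside the wild-type range. The log2 difference was -0.01 (95% interval -0.29 to 0.28, adjusted p = 0.989), and the spread was wider in wild type (SD 1840 of a mean of 9881) than in KO (SD 502 of 9727).

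Lipa, the lysosomal acid lipase, was lower on each of its 3 probe sets, and on each the highest KO array was below the lowest wild-type array. The brightest (1450872_s_at) read 5263, 5255 and 4693 in wild type and 3345, 4119, 3106 and 3099 in KO replicates 1 to 4. Its mean fell from 5070 ± 327 to 3417 ± 481 (log2 difference -0.57 ± 0.12, adjusted p = 0.0462). Of the KO arrays, replicate 2 lay nearest to wild type.

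On 1423141_at, Lipa read 2407, 2661 and 2637 in wild type and 1613, 2013, 1468 and 1734 in KO replicates 1 to 4. The difference was -0.59 ± 0.12 (adjusted p = 0.0451). On 1423140_at it read 3144, 2276 and 2099 in wild type and 1346, 1568, 1427 and 627 in KO. That probe set had the largest difference of the 3 and the largest spread (-1.05 ± 0.27, adjusted p = 0.0868), and KO replicate 4 read lowest. The probe table gives the same source sequence for all 3 probe sets.

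Without KO replicate 2 all 3 Lipa probe sets passed, with log2 differences of -0.67, -0.67 and -1.19 (adjusted p = 0.00448, 0.0069 and 0.0309). With the deposit block as a covariate they also passed (-0.60, -0.60 and -1.15, adjusted p = 0.0309, 0.0443 and 0.0368). Within the second block the brightest differed by -0.67 (adjusted p = 0.0302), and within the first by -0.50. The calls lie close to the threshold: without any 1 of the other 6 arrays neither of them passed, with differences of -0.63 to -0.52 and adjusted p from 0.111 to 0.169. Scaling by the array median, testing without the filter and testing without the variance trend also ended both calls, and quantile normalization ended that of 1423141_at.

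**Figure D3:**
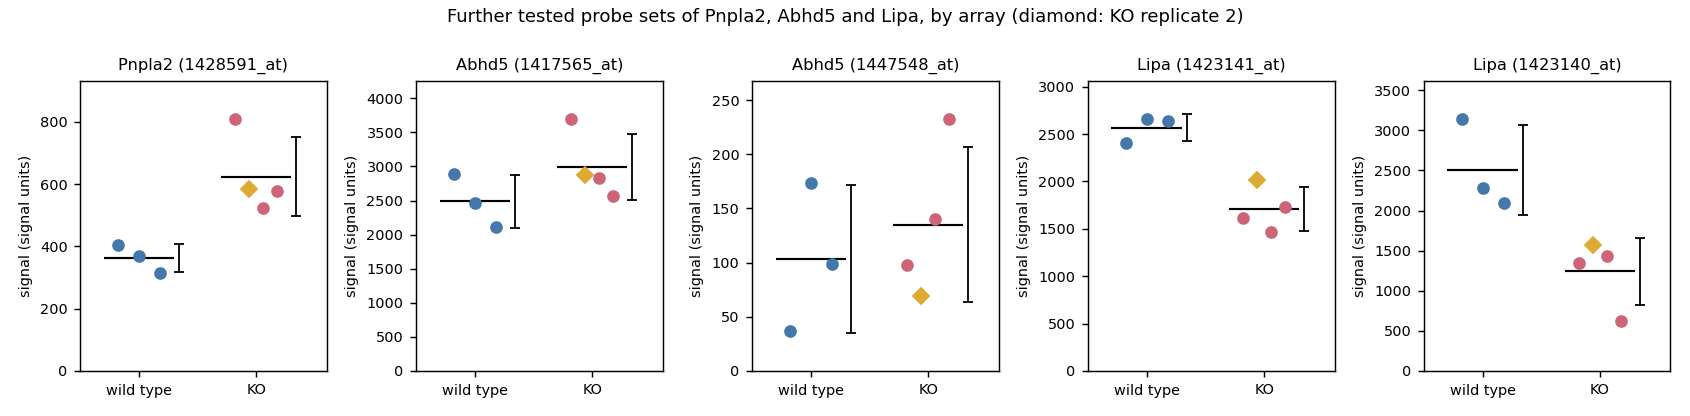
Signal on each array, in signal units, for the further tested probe sets of Pnpla2, Abhd5 and Lipa; points are arrays (diamond, KO replicate 2), lines means and bars SD. The groups do not overlap for Pnpla2 1428591_at (316 to 406 against 524 to 810) or for both Lipa probe sets, and they overlap for both Abhd5 probe sets.

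Brown fat holds cells other than adipocytes, and in whole tissue fewer cells of a type and less RNA per cell cannot be told apart. Macrophages also express Lipa. Of 14 tested macrophage and leukocyte markers 0 passed in either direction (limma, with 2 at an unadjusted p under 0.05; median log2 difference -0.01). Their summed signal was 15559 to 16721 on wild-type arrays and 12610 to 20551 on KO arrays, and these ranges overlapped. The log2 differences of the tested markers ran both ways, from -0.44 for Fcer1g to 0.51 for Lyz2, and none was at 0. Among them, Cd68 and Mrc1 were at -0.37 and Adgre1 at -0.32, while Cd14 was at 0.4 and Cd163 at 0.44. Aif1, too dim to be tested, averaged 146 ± 22.3 in wild type and 41.9 ± 30.5 in KO.

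Adipocyte markers summed to 108036 to 122746 in wild type and 107900 to 131534 in KO, with 0 of 8 past the threshold (2 at an unadjusted p under 0.05). Brown adipocyte markers had 0 of 10 (0 at an unadjusted p under 0.05; 105066 to 120313 against 100368 to 126745). Fibroblast and preadipocyte markers had 0 of 10 (4 at an unadjusted p under 0.05), with sums of 78825 to 86342 in wild type. The sums were 49910, 80101, 71163 and 77020 in KO replicates 1 to 4, so only KO replicate 2 reached the wild-type range. Neutrophil granule markers had the largest median of these lists, 0.60, with 5 of 8 at an unadjusted p under 0.05. Of these markers 1, Chil3, was called higher (log2 difference 2.09, limma, adjusted p = 0.034). Over all genes tested, 18.2% had an unadjusted p under 0.05 and 1.12% were called higher. Camp (1.46), Lcn2 (0.94) and Ngp (0.65) did not pass (limma, adjusted p = 0.0952, 0.102 and 0.0954). Chil3 averaged 99.4 ± 45.7 in wild type and 550 ± 239 in KO, and Camp 94.0 ± 48.5 and 323 ± 155. Both were dim in wild type, and the filter used the mean over all arrays, so their KO signal counted towards their being tested. The sums of the neutrophil granule markers were 4655 to 7073 in wild type and 6667 to 11538 in KO. Endothelial markers had 0 of 10 (4 unadjusted), skeletal muscle markers 0 of 11 (1 unadjusted) and erythroid markers 0 of 3 (0 unadjusted). The part of the macrophage, fibroblast and neutrophil signals in the Lipa, Abhd5 and Pnpla2 differences was not tested.

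None of the lysosome and lipophagy genes tested beside Lipa passed as lower. By their brightest probe sets, 1 of 41 tested genes rose and 0 fell, where 1.12% of all genes tested were called higher and 0.710% lower, and the median was 0.09. Lamp2, a membrane protein of lysosomes, was the riser: it read 4116, 3713 and 3401 in wild type and 7684, 4986, 7589 and 8093 in KO replicates 1 to 4 (1.86-fold, log2 difference 0.89, adjusted p = 0.0315). The KO arrays were all above wild type. Its 4 tested probe sets disagreed, with differences of 0.89, 0.66, -0.11 and -0.18, and 1 of them passed.

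Neu1, a lysosomal sialidase, averaged 444 ± 10.5 in wild type and 739 ± 139 in KO on its brightest probe set (adjusted p = 0.0641), while its other tested one differed by 0.03. Without KO replicate 2, 7 of the 41 genes rose and 0 fell (background 3.39% higher and 4.99% lower by gene). These 7 were Lamp2, Neu1, the cholesterol transporters Npc1 and Npc2, the autophagy genes Ulk1 and Map1lc3b, and the protease gene Ctsl, with rises of 1.31-fold to 2.08-fold. The 5 after Neu1 were named after their values were seen and were read on their brightest probe set alone. Lipa fell 1.59-fold in the same fit.

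Among other lipases and esterases, 1 of 18 tested genes rose and 0 fell (median 0.11), where 1.12% of all genes tested were called higher and 0.710% lower. Ces1d, a carboxylesterase that hydrolyses triglyceride, read 10046, 6481 and 8009 in wild type and 15219, 12127, 13244 and 14839 in KO replicates 1 to 4. All KO arrays were above wild type, and it rose 1.71-fold (log2 difference 0.78 ± 0.15, adjusted p = 0.0342). All 3 of its probe sets rose, with differences of 0.78, 0.78 and 1.13. Close relatives of Ces1d exist, so its probes may read more than 1 gene. Abhd6, a monoglyceride hydrolase, was at 1528 ± 147 against 1012 ± 150 (adjusted p = 0.0579), and -0.04 was the log2 difference of its other probe set. Without KO replicate 2, Ces1d, Abhd6 and Pnpla7 rose and the lysosomal phospholipase gene Pla2g15 fell on their brightest probe sets. The latter pair were named after their values were seen. Background shares by gene in that fit were 3.39% higher and 4.99% lower.

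**Figure D4:**
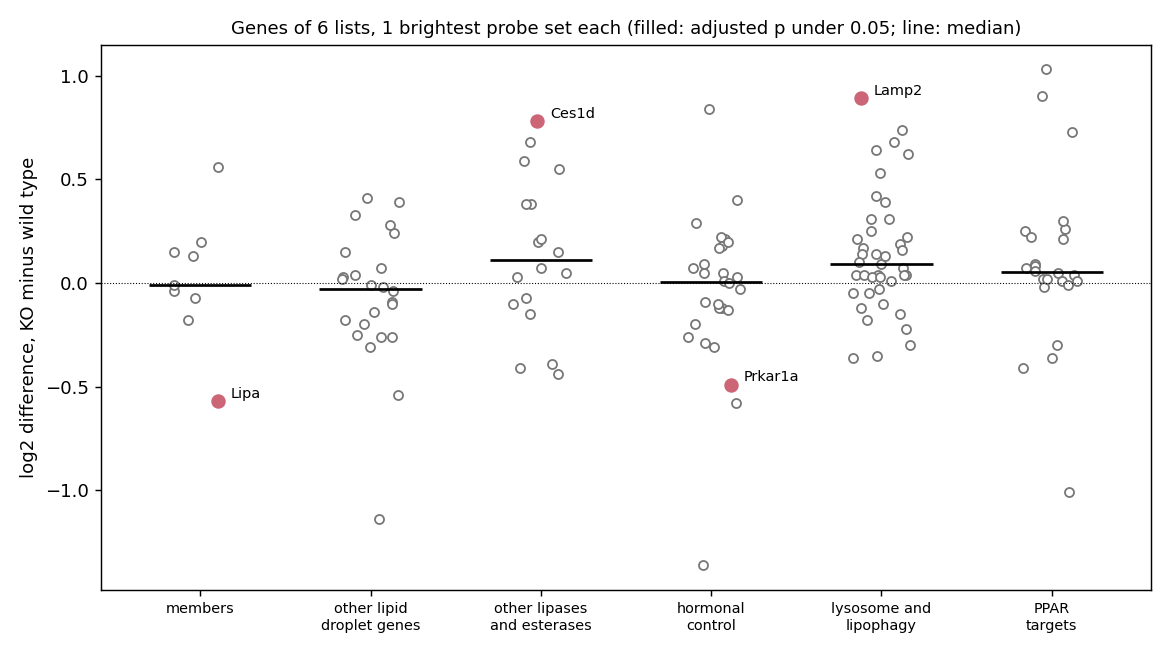
Log2 difference between KO and wild type for the tested genes of 6 lists, 1 brightest probe set per gene; filled points passed at an adjusted p under 0.05 and lines are list medians. Lipa, Ces1d, Prkar1a and Lamp2 are the 4 points that passed, and the list medians lie between -0.03 and 0.11. The probe sets shown for Prkar1a and Lamp2 rank brightest through the group where they are high.

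Of the other lipid droplet coat and biogenesis genes, 0 of 24 passed with all arrays (limma, 5 at an unadjusted p under 0.05, median -0.03). Over all genes tested, 18.2% had an unadjusted p under 0.05, 1.12% were called higher and 0.710% lower. Hsd17b11, a droplet-associated dehydrogenase, read 2573 ± 122 in wild type and 3383 ± 344 in KO (limma, adjusted p = 0.114), and Mettl7b 163 ± 17.7 and 64.8 ± 48.6 (adjusted p = 0.122). Mettl7b read only 55.4, 39.4 and 28.5 in KO replicates 1, 3 and 4, near the constant of 30.6 added to signals. The filter used the mean over all arrays, so Mettl7b was tested because of its wild-type signal. Hsd17b11 and Mettl7b passed without KO replicate 2, with log2 differences of 0.46 and -1.45 (limma, adjusted p = 0.0214 and 0.011). They were the 2 calls of the list in that fit, where 3.39% of all genes tested were called higher and 4.99% lower.

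The hormonal control of lipolysis was represented by 28 tested genes, of which 0 rose and 1 fell on the brightest probe set (median 0). Over all genes tested, 1.12% were called higher and 0.710% lower. Prkar1a, a regulatory subunit of protein kinase A, the kinase that phosphorylates Lipe and perilipin 1, read 5448, 5434 and 5629 in wild type and 3857, 3922, 4237 and 3673 in KO replicates 1 to 4. The 4 KO arrays were all lower, KO replicate 2 included, and this probe set fell 1.40-fold (log2 difference -0.49 ± 0.09, limma, adjusted p = 0.0371). The other tested Prkar1a probe sets differed by -0.03 and 0.59 and did not pass. The one at -0.03 averaged 4437 in wild type and 4371 in KO, against 5504 and 3922 for the probe set that fell. It was thus the brighter of this pair in KO. The call therefore depends on a ranking to which the wild-type signal contributed, and a fall of the gene is not established. Ptger3, a prostaglandin E receptor that dampens cyclic AMP in fat cells, read 605 ± 151 in wild type and 241 ± 165 in KO (adjusted p = 0.0812), with 487 on KO replicate 2. Without that array Prkar1a and Ptger3 fell on their brightest probe sets, where 4.99% of all genes tested were called lower. Pde3b, a phosphodiesterase through which insulin restrains lipolysis, rose 1.39-fold on its brightest probe set (limma, adjusted p = 0.0331), where 3.39% were called higher. Pde3b was named after its values were seen.

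Several of the members are targets of PPAR nuclear receptors, so other PPAR target genes were set beside them. Of 24 tested, 0 passed with all arrays (limma, 6 at an unadjusted p under 0.05, median 0.06). The shares over all genes tested were 18.2% at an unadjusted p under 0.05, 1.12% called higher and 0.710% called lower. Angptl4, an inhibitor of lipoprotein lipase, read 9272, 7790 and 10149 in wild type and 15963, 11840, 13351 and 19731 in KO replicates 1 to 4, without overlap (log2 difference 0.73 ± 0.17, adjusted p = 0.0603). Acot1, an acyl-CoA thioesterase, was at 2122 ± 551 against 1119 ± 286 (adjusted p = 0.0639). Angptl4 and Acot1 passed without KO replicate 2 (0.84 and 1, limma, adjusted p = 0.0104 and 0.0234). Ehhadh also rose and Fabp3 fell there on their brightest probe sets (2.46-fold and 2.29-fold, both named after their values were seen). In that fit 3.39% of all genes tested were called higher and 4.99% lower.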

How the data were processed

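Biotin-labelled total RNA of 7 samples was hybridised to 1 array each, per the labels. The deposited values are linear signal intensities per probe set, and the submitters' processing notes name GCOS 1.2. Scaling is not stated. The 2% trimmed mean was 500.0 on every array, and this scaling was kept. Of 45101 probe sets, 64 controls were left out. The probe table gave 1 symbol for 34945 of the rest, several for 932 and none for 9160, with symbols updated through RefSeq (GRCm38.p6).

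Signals were analysed as log2(signal + 30.6), where the added constant is the 20th percentile of all values, so that fold changes of dim probe sets are understated. Probe sets with a mean under the 40th percentile were left out. KO was compared with wild type with limma 3.58.1 in R 4.3.3 (mean-variance trend, two-sided, Benjamini-Hochberg over 27022 probe sets, threshold 0.05). The fit was tested on simulated data first. Its seeded differences were larger than those of the called Lipa probe sets, so it does not show recovery at that size. Folds are from log2 differences. Genes are represented by their brightest probe set, ranked by the mean log2 value over all arrays of both groups. The group where a probe set is high therefore weighs in that choice. From each further list, genes that passed and the 2 with the smallest p were named, and all their probe sets were read. Genes named after their values were seen were read on their brightest probe set alone, so disagreement between their probe sets was not examined. Members and lists were chosen with earlier results of these data known. Precision is limited by the number of arrays.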

Additional observations from a re-analysis of the deposited data

How the results depend on the processing

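The count of probe sets called over the whole table was 431, and 2 of them were member probe sets. The whole-table count was 235 with median scaling (158 higher, 77 lower), 100 without the filter, 6 without the variance trend, 1312 with array weights, 726 within the second deposit block and 0 within the first (limma, 1024 at an unadjusted p under 0.05). It ranged from 7 to 1986 when 1 array was left out. The member count was 1 with quantile normalization, 1 with 1 probe set per gene, 4 with array weights, and 0 with median scaling, without the filter, without the trend and within the first block (5, 5, 5 and 2 at an unadjusted p under 0.05). It ranged from 0 to 5 when 1 array was left out, 5 being without KO replicate 2. Other offsets, a stricter filter, a robust variance and the deposit block as a covariate kept both counts within 1.5-fold.

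Equal replicate numbers are not stated to mark shared animals or days. Deviations of equally numbered arrays correlated at 0.14, 0.09 and 0.11, in each case more than with any other number. Deviations cancel within each group, so these correlations are not independent of one another. Replicate 1 was in the first deposit block in both groups, so its correlation cannot be told apart from a block difference. The correlations are at most a hint from the data and not from the design. With the replicate block, which leaves KO replicate 2 without weight, 2183 probe sets and 5 member probe sets passed: all 3 of Lipa, Abhd5 1417566_at and Pnpla2 1428591_at.

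Signs turned for values that passed in no fit, near 0 apart from Abhd5 1447548_at. Cidec was 0.0084 with median scaling and 0.048 within the second block, and -0.16 to 0.11 when 1 array was left out. G0s2 was 0.013 with the deposit block as a covariate, 0.074 within the second block, and -0.12 to 0.11 without 1 array. Plin2 was 0.018 with the replicate block, 0.012 within the second block, and -0.16 to 0.018 without 1 array. The Plin5 probe sets were -0.014 and -0.0016 within the first block, and Abhd5 1447548_at, at 0.35 with all arrays, ranged from -0.068, without wild-type replicate 1, to 0.73.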
